A study of Rattus norvegicus with 92 samples.

Results

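Nasal epithelium was compared with lung in male Wistar-Kyoto rats that had breathed air, using 13 of the 92 RNA sequencing samples of the series. The members were chosen by their labels: 5 nasal air samples, with the label numbers 2, 4, 5, 6 and 8, and 8 lung air samples, numbered 1 to 8. All were adult Wistar-Kyoto males that served as the 0 ppm controls of a 4 h inhalation study of acrolein, an irritant aldehyde of smoke, and tissue was taken right after the exposure. The exposed animals of the same tissues, 6 nasal and 6 lung samples after 4 h of 3.16 ppm acrolein, were used to see whether the tissue difference recurred in other rats. They also entered a test of whether that difference depended on exposure. Samples were portions of frozen tissue, so fewer cells of a type and less RNA per cell cannot be told apart. The extraction kit was chosen by tissue type, so kit and tissue cannot be told apart either. The labels do not say whether a nasal and a lung sample with the same number came from 1 rat, and those of nasal replicates 4, 5 and 6 carry an R after the number that the sources used here do not explain.

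As background, the rodent nasal cavity is lined by a respiratory epithelium of ciliated, secretory and basal cells and by an olfactory epithelium that holds sensory neurons, with glands beneath both. Lung tissue is mostly alveolar epithelium, capillary endothelium, airway epithelium and resident immune cells. Both surfaces meet inhaled air directly, the nasal lining first. The deposited tables list 20508 rows by Ensembl identifier, 19719 of them transcripts and 789 genes, and do not pair them with gene symbols. Results are therefore given for groups of rows defined by level and by tissue, and for 4 single identifiers. The labelled tissues could not be checked against defining marker genes. They were instead set against the mean profile of each of the 8 tissues of the series, leaving out the sample itself. All 13 samples correlated best with their own labelled tissue, at Pearson r of 0.959 to 0.993 across rows of log2(CPM + 1), where CPM is reads of the row scaled to a common total of all reads in the sample, against 0.838 to 0.879 for the next tissue. Rows are not independent replicates, and the points share a depth and an annotation.

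The deposited values are read counts over a sample's size factor, from which whole reads were recovered. The nasal libraries held 14308092 to 21100321 reads, a median of 15744415, and the lung libraries 8039391 to 19943775, a median of 10937180. The nasal mean was the higher, at a two-sided exact permutation p of 0.0699, which ran from 0.0202 to 0.158 when single samples were left out. All 13 samples were normalized together before they were compared. The nasal libraries had a read in 19053 to 19352 rows and the lung libraries in 17816 to 18688, with no overlap (exact permutation p = 0.00155, the smallest that 5 samples against 8 can give).

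Tissue accounted for most of the variation among the 13 samples. The first principal component took 66.7% of the variance and separated the nasal from the lung samples. The second took 6.48% and spread the nasal samples, from a score of 96.6 for replicate 4 to -78.3 for replicate 6. The third took 5.08% and set lung replicate 6 apart, at a score of -101.1. Correlations between samples were 0.921 to 0.964 among nasal samples, 0.951 to 0.983 among lung samples, and 0.811 to 0.857 between the tissues.

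**Figure D1:**
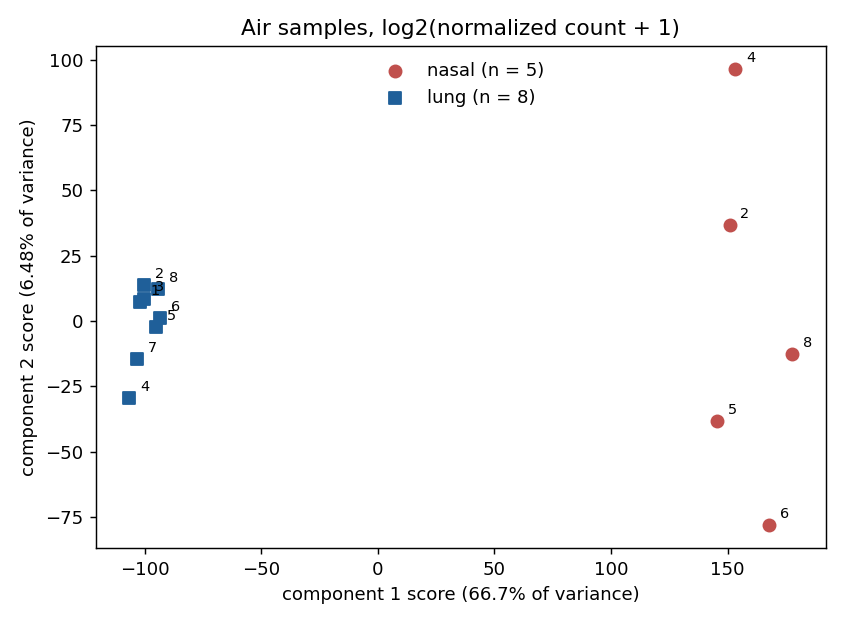
Scores of the 5 nasal (circles) and 8 lung (squares) air samples on the first component (horizontal axis, 66.7% of variance) and the second (vertical axis, 6.48%) of log2(normalized count + 1), with replicate numbers. The tissues separate along the first component, and the nasal samples spread more widely along the second.

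The nasal libraries were dominated by a few transcripts. The 10 most abundant rows of each library took 24.4%, 26.6%, 14.4%, 16.2% and 11.3% of the reads in nasal replicates 2, 4, 5, 6 and 8, and 5.27% to 7.09% in the lungs. The groups did not overlap: the mean share was 18.6% ± 6.62 (SD, n = 5) in nasal and 6.16% ± 0.704 (SD, n = 8) in lung, with an exact permutation p of 0.00155, at most 0.00404 with any 1 sample left out. The 100 most abundant rows took 24.6% to 40.1% of nasal reads and 18.02% to 20.03% of lung reads. Between nasal and lung, the 10 rows with the highest mean had 1 row in common and the 100 highest had 36. Of the 10 leading nasal rows, 9 were higher in nasal than in lung and 6 of these by at least 32-fold. Of the 10 leading lung rows, 9 were higher in lung, 4 of them by at least 32-fold, and 1 was higher in nasal. These rows were chosen for a high mean in the same samples, which favours that direction. By the test given below, 34.9% of all tested rows were higher in nasal, 1.84% by at least 32-fold. In lung the shares were 26.7% and 0.65%.

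Most of the measured transcriptome differed between the tissues. Using limma on log2(normalized count + 1) with Benjamini-Hochberg adjustment, 12515 of 20311 tested rows, 61.6%, differed at an adjusted p no higher than 0.1 and by over 1.2-fold. Of the tested rows, 7091 (34.9%) were higher in nasal and 5424 (26.7%) were higher in lung. The split depends on normalization: nasal-higher rows were 56.7% of the calls here, 68.7% with each tissue left as the authors normalized it, and 48.5% when all samples were forced to 1 distribution. The median difference of all tested rows was 0.17 on the log2 scale, nasal minus lung, and it ran from -0.04 to 0.43 over these normalizations. Among called rows the median was 1.40 for those higher in nasal and -1.18 for those higher in lung, beside a median standard error of 0.28 over all rows.

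The large differences leaned toward nasal epithelium. A difference of at least 2-fold was called in 8074 rows (39.8%), with 4894 higher in nasal (24.1%) and 3180 in lung (15.7%), and one of at least 32-fold in 506 rows (2.49%), with 374 higher in nasal (1.84%) and 132 in lung (0.65%). At the smallest sizes, from 1.2-fold to 2-fold, the calls were near even, at 2197 higher in nasal and 2244 in lung. Without any overlap between the 5 nasal and 8 lung samples there were 6233 rows (30.7%), 3269 higher in nasal (16.1%) and 2964 in lung (14.6%). On this log scale folds of rows with few reads come out too small, and the number past 32-fold moves with the constant added to the counts and with the tool: it was 192 in nasal and 78 in lung with 5 added in place of 1, and 671 and 215 with edgeR on the recovered reads.

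The direction of the difference changed with the level of the row. Among the 4106 rows with a mean under 10 normalized counts, 1274 were higher in nasal and 390 in lung. Among the 4990 rows between 10 and 100, 2211 were higher in nasal and 997 in lung. Between 100 and 1000 the counts came closer, at 2974 and 2477 of 8202 rows. Among the 2910 rows between 1000 and 10000 the order turned, with 592 higher in nasal and 1514 in lung. The 103 rows above 10000 held 40 higher in nasal and 46 higher in lung. The share called in either direction rose from 40.5% in the lowest of these ranges to 83.5% in the highest. With all libraries thinned to the reads of the smallest, 8039391, 12139 rows were called and 56.1% of them were higher in nasal, a value over all levels together.

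**Figure D2:**
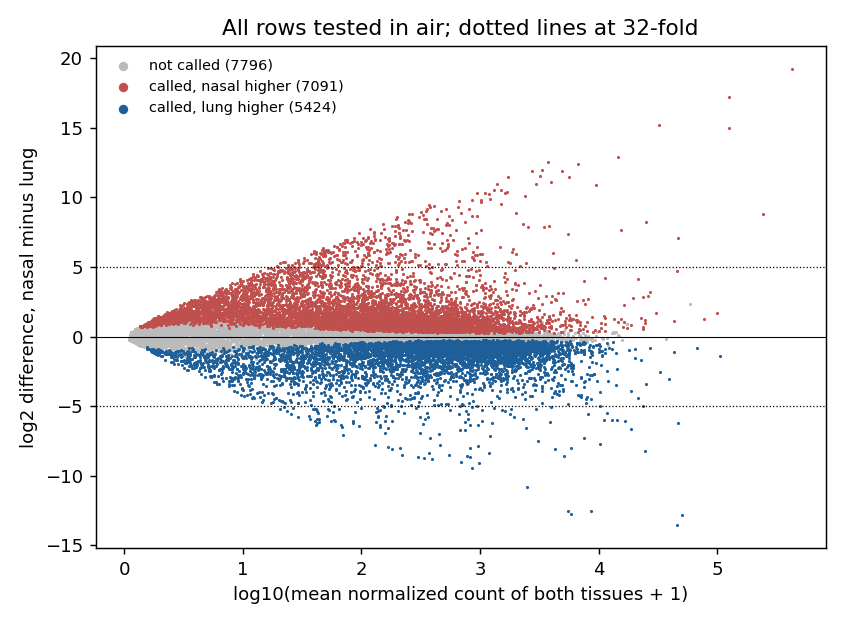
Each point is 1 of the 20311 rows tested in air: the horizontal axis is log10 of its mean normalized count over both tissues plus 1, the vertical axis the log2 difference, nasal minus lung. Red points (7091) were called higher in nasal, blue points (5424) higher in lung and grey points (7796) were not called; the upper edge reaches higher than the lower edge is deep.

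The remaining 7796 rows (38.4%) passed neither way. In 4177 of them (20.6% of all tested) the 95% interval of the difference lay within 2-fold either way, and in 4 (0.0197%) it lay within 1.2-fold. The other rows that were not called are those for which 13 samples leave a 2-fold difference possible.

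The 2 largest differences in each direction, among called rows whose groups did not overlap and whose mean reached 100 normalized counts in the higher tissue, were also among the most abundant rows of their tissue. ENSRNOT00000088538 had the highest mean of the nasal rows, at 1422225, 1601746, 494797, 627754 and 128147 normalized counts in nasal replicates 2, 4, 5, 6 and 8. It took 10.25% of all reads in replicate 2, 11.03% in replicate 4 and 1.08% in replicate 8, where another row led with 4.28%. No lung library had a read of it. Against a floor of 3 reads in each lung library its arithmetic nasal mean was at least 235754-fold higher. Nasal replicates 5, 6 and 8, each below that mean, do not reach that bound on their own. The log2 difference of the row was 19.24 (SE 0.42, limma adjusted p = 3.42e-15). With every lung at 0 that value is set by the constant added to the counts and is no bound: it was 20.24 with 0.5 added, 16.92 with 5, and 22.78 in edgeR. Elsewhere in the series its highest mean was 227.3 CPM, in hippocampus, against 61900 in nasal.

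ENSRNOT00000073734 had the third highest mean of the nasal rows. Its normalized counts were 479895, 267819, 152065, 331365 and 11975 in the same order, and all 8 lung libraries were at 0 reads. By the same floor its arithmetic nasal mean was at least 68559-fold higher, a bound that nasal replicates 5 and 8 on their own do not reach. The log2 difference of the row was 17.20 (SE 0.61, limma adjusted p = 3.5e-13), which was 14.88 with 5 added to the counts and 21.0036 in edgeR. Nasal replicate 8 was the lowest of the 5 for both rows, and without it the log2 difference of ENSRNOT00000073734 was 18.09.

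ENSRNOT00000119173 was the fourth most abundant lung row. It ran from 34617 to 181803 normalized counts over the 8 lungs, with a median of 72377. In nasal replicates 2, 4, 5, 6 and 8 it was at 161.1, 0.769, 0.840, 2.48 and 5.78. The log2 difference was -13.57 (SE 0.80, limma adjusted p = 2.01e-10). ENSRNOT00000047870 had the second highest mean in lung. It ran from 79218 to 124147 normalized counts in the lungs, a median of 103301, and stood at 192.7, 11.5, 2.52, 9.93 and 4.13 in the nasal samples. Its log2 difference was -12.82 (SE 0.64, limma adjusted p = 2.19e-11).

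For both lung rows nasal replicate 2 was the high nasal sample. Without it the log2 differences were -14.70 for ENSRNOT00000119173 and -13.77 for ENSRNOT00000047870, and without the 3 nasal samples that carry an R in the label they were -11.22 and -11.60. The 60 rows restricted to lung among the tissues outside the airways, chosen without nasal values, were at a median of 3.81% of their lung level in nasal replicate 2 and 2.75% to 4.41% in the other nasal samples, so replicate 2 was not the highest at the median. Its lower quartile over these rows, 1.11%, was the highest of the 5, with the others at 0.337% to 0.610%. The part of any lung material in that difference was not tested.

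**Figure D3:**
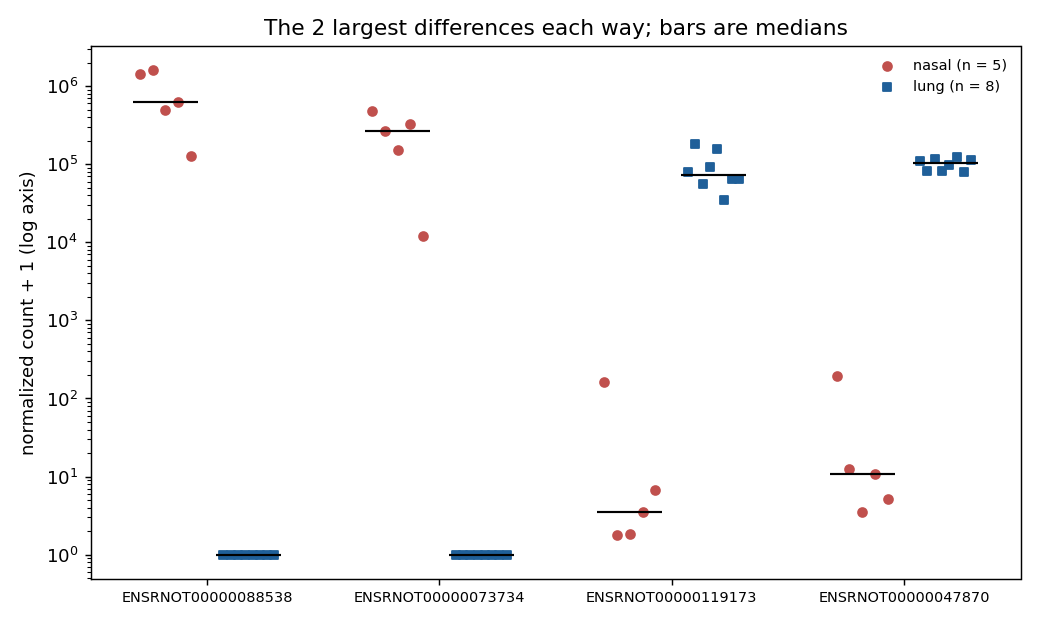
Normalized count plus 1 (log axis) of the 4 identifiers in each nasal (circles, n = 5) and lung (squares, n = 8) air sample, with bars at the medians. The first 2 sit on the lowest line in every lung, and the last 2 sit at 192.7 normalized counts or less in every nasal sample and at 34617 or more in every lung.

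Rows seen in 1 tissue and at or near 0 in the other were mostly nasal. A mean of at least 100 normalized counts in nasal with at most 3 reads in every lung library was found in 116 rows, of which 24 had no read in any lung. For these 116 the bound on the fold of the group mean ran from at least 28.2 to at least 235754, with a median bound of 87.3. The reverse, at least 100 in lung with at most 3 reads in every nasal library, was found in 14 rows, 1 of them without a nasal read, with bounds of at least 44.1 to at least 253.9 and a median bound of 84.1. These lists were cut on the same contrast, so their counts are descriptions. The cut of 3 reads is not scaled to depth. Size factors were 0.598 to 1.521 in the lungs and 1.191 to 1.521 in nasal, so a shallow lung meets it more easily. The part of depth and of the number of libraries in the 2 counts was not tested. In the acrolein samples, which the choice did not use, 107 of the 116 nasal rows were above 3 reads in all 6 nasal samples and 71 were again at 3 reads or fewer in all 6 lungs. The deepest of these lungs held 30194066 reads, against 19943775 in air, which makes the same cut harder to meet. For the 14 lung rows these counts were 13 and 9.

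The rows at least 32-fold apart took a large part of the nasal library. The 374 rows higher in nasal accounted for 11.1% to 24.8% of the reads of the nasal air samples, a median of 17.5%, and 0.0269% to 0.0448% of the reads of the lungs. The 132 rows higher in lung accounted for 5.11% to 5.98% of lung reads and 0.0424% to 0.0579% of nasal reads. Both lists were chosen on these same air samples, so the contrast of shares in air is a description. Single rows made up much of the nasal share: ENSRNOT00000088538 took a mean of 6.19% of nasal air reads and ENSRNOT00000073734 1.82%. In the acrolein samples the 374 rows took 12.6% to 34.8% of nasal reads, and the 132 rows 5.21% to 7.09% of lung reads.

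Many of these rows were also present outside the airways. Of the 374 higher in nasal, 110 (29.4%) were under 1 part in 20 of their nasal level in adrenal, adipose, liver, muscle, hippocampus and hypothalamus alike, and 178 (47.6%) stood at 50% or more of it in at least 1 of these. The brain regions were the most frequent: 124 rows reached 50% of the nasal level in hypothalamus and 114 in hippocampus, 103 (27.5%) in both, against 39 in liver, 31 in adrenal, 18 in adipose and 18 in muscle. Of the 132 rows higher in lung, 43 (32.6%) were under 1 part in 20 elsewhere and 43 reached 50% of the lung level in some other tissue. Here 6 rows (4.55%) reached it in both brain regions, 17 in adipose and 14 in liver. These levels were compared in CPM over the air samples of each tissue, and the rows were chosen on the nasal and lung values themselves.

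To describe brain transcripts with rows that the nasal and lung values had not chosen, rows were taken that had at least 50 CPM in both hippocampus and hypothalamus and under 1 part in 20 of that in adrenal, adipose, liver and muscle. This gave 246 brain-restricted rows, which would include genes of neurons and glia. Of these, 194 (78.9%) were called higher in nasal, against 34.9% of all rows tested, and 21 (8.54%) were called higher in lung, against 26.7%. Their median log2 difference was 2.74, beside 0.17 for all rows. All 5 nasal samples were above all 8 lungs in 146 of them, or 59.3%, where 16.1% of all rows behaved so. In 29 the difference was at least 32-fold toward nasal. Few approached the brain level: 62 of 246 reached 10% of it in nasal and 20 in lung, and 4 rows in nasal and 1 in lung were at or above it.

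The level of these rows differed several-fold among the nasal samples. The median over the 246 rows was 3.31%, 1.55%, 4.66%, 9.004% and 5.88% of the brain level in nasal replicates 2, 4, 5, 6 and 8, and 0.441% to 0.739% in the 8 lungs. Each nasal sample was thus above each lung. Replicate 6 held the highest nasal value in 170 of the 246 rows and replicate 4 the lowest in 162. Replicate 4 was also the sample with the largest share of reads in its 10 leading rows, and these samples are the 2 ends of the second principal component. Tighter and looser limits on the rows, with 114 to 381 rows, put 74.5% to 81.6% of them higher in nasal.

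Rows restricted in the same way to 1 of the other tissues leaned less to nasal. Of 125 muscle-restricted rows, 74 (59.2%) were called higher in nasal, against 34.9% of all rows, and 14 (11.2%) in lung, against 26.7%, with a median log2 difference of 1.24. The nasal samples were unequal: their median level was 0.458% of muscle in replicate 2 and 0.407% in replicate 8, and 0.224% in replicate 6, while replicates 4 and 5, at 0.0677% and 0.111%, lay within the range of the lungs, 0.0667% to 0.146%. With rows under a mean of 10 left out, 49 were called higher in nasal, where 52.9% of the calls over all rows were. The number of muscle-restricted rows left by that filter is not given here. The 37 adrenal-restricted rows gave 13 calls (35.1%) higher in nasal, a share near that of all rows, and 17 (45.9%) in lung, and the 21 adipose-restricted rows gave 5 each way (23.8%).

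Of 296 liver-restricted rows, 111 (37.5%) were called higher in lung, against 26.7% of all rows, and 65 (22.0%) higher in nasal, against 34.9%, with a median log2 difference of -0.69. Of the 296, 20 were at least 32-fold higher in nasal and 10 in lung, against 1.84% and 0.65% of all rows. All nasal samples were above all lungs in 39 rows (13.2%, against 16.1% of all rows) and below them in 38, against 14.6%. A level of 10% of that in liver was reached by 27 rows in nasal and 11 in lung. The lungs fell into different levels: the median over the 296 rows was 0.248%, 0.185% and 0.153% of the liver level in lung replicates 3, 6 and 8, and 0.00171% to 0.0250% in the other 5 lungs. The nasal samples were at 0.0252% to 0.0438%. Without lung replicates 3, 6 and 8, an alternative chosen after these values were seen, 64 liver-restricted rows were called higher in lung and 78 higher in nasal. Among rows whose mean reached 10 the counts were 58 in lung and 51 in nasal, and without the 3 nasal samples with an R in the label 53 and 60. Over all rows, 56.3%, 52.9% and 55.1% of the calls were higher in nasal in these settings, in the order given. The number of liver-restricted rows left by the filter on the mean is not given here, so these counts are not shares. Lung replicates 3, 6 and 8 are also the deepest of the 8 lung libraries, and the part of liver RNA or depth in these values was not tested.

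**Figure D4:**
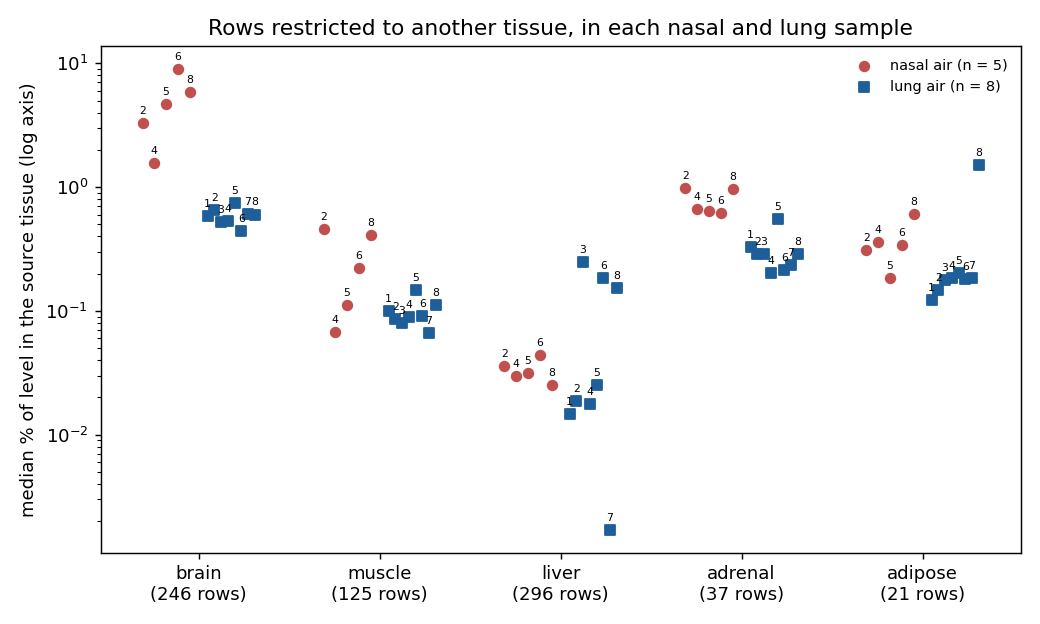
Median level of rows restricted to brain, muscle, liver, adrenal or adipose tissue, as a percent of the level in that tissue (log axis), in each nasal (circles) and lung (squares) air sample, with replicate numbers. All 5 nasal samples are above all 8 lungs for the brain rows, and lung replicates 3, 6 and 8 stand above the other lungs for the liver rows.

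The nasal samples of this comparison varied more among themselves than the lungs, which is described here without a test. Over 16126 rows whose mean reached 10, the median SD of log2(normalized count + 1) was 0.435 among the 5 nasal and 0.369 among the 8 lung samples, and the SD was larger in nasal in 59.1% of rows. Among the 218 brain-restricted rows with such a mean, it was 1.069 in nasal and 0.570 in lung, and larger in nasal in 177. A range of 8-fold or more within the tissue was seen in 974 rows in nasal, 82 of them brain-restricted, and in 842 rows in lung, 21 of them brain-restricted.

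Set against the other tissues, nasal and lung were not each other's closest in both directions. The mean nasal profile correlated best with lung (r = 0.862 over 20508 rows of log2(CPM + 1)), then with adipose (0.823) and adrenal (0.820), hypothalamus (0.783) and hippocampus (0.774). The mean lung profile correlated at 0.879 with adipose and 0.862 with nasal, and at 0.734 with hippocampus. These are descriptions across rows that share an annotation.

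The tissue difference recurred in the acrolein rats. Normalized and tested on their own, 6 nasal against 6 lung samples gave 10722 calls among 20352 rows (52.7%), 6108 higher in nasal and 4614 in lung. Of the 12515 rows called in air, 9295 were called in the same direction, which is 74.3% of the air calls and 86.7% of the acrolein calls, and 29 were called in the opposite direction. Of the 506 rows at least 32-fold apart in air, 498 were called in the same direction and 410 were again at least 32-fold apart. The 4 identifiers had log2 differences of 18.80 for ENSRNOT00000088538, 17.12 for ENSRNOT00000073734, -13.96 for ENSRNOT00000119173 and -13.75 for ENSRNOT00000047870. The lungs of these rats had up to 32 reads of the first and up to 12 of the second.

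**Figure D5:**
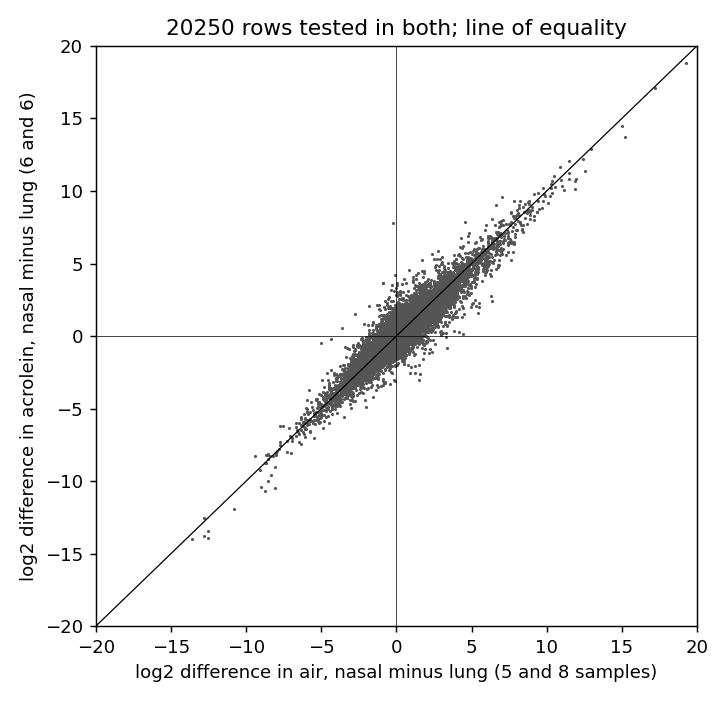
Log2 difference, nasal minus lung, in air (horizontal axis, 5 and 8 samples) and in acrolein (vertical axis, 6 and 6 samples) for the 20250 rows tested in both, with the line of equality. No sample is shared between the axes; the points lie along the line at both ends.

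Among the brain-restricted rows, 168 of 246 (68.3%) were called higher in nasal in the acrolein rats, where 30.0% of all rows were, and all 168 were among the 194 of the air rats. Their median in the acrolein nasal samples ran from 1.21% to 8.32% of the brain level and in the acrolein lungs from 0.526% to 0.715%. The muscle and liver rows did not recur in this way. Of the muscle-restricted rows, 25 (20%) were higher in nasal in acrolein, where 30.0% of all rows were, 21 of them among the 74 of the air rats. Of the liver-restricted rows, 81 (27.4%) were higher in nasal, near the 30.0% of all rows. Called higher in lung were 41 of the 296 liver, 19 of the 125 muscle and 23 of the 246 brain rows, beside 4614 of all 20352. In these rats nasal replicate 12 was at 0.843% of the liver level, with the other nasal samples at 0.0404% to 0.0779% and the lungs at 0.0170% to 0.134%.

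Whether the tissue difference itself depended on exposure was tested over all 25 nasal and lung samples. The interaction passed an adjusted p of at most 0.1 in limma in 43 of 20441 rows (0.21%). An unadjusted limma p under 0.05 was found in 1089 rows, a share near the 0.05 that no interaction in any row would give. In 40 of the 43 nasal minus lung was larger in the acrolein rats and in 3 smaller, with changes from -3.33 to 7.94 on the log2 scale, and 26 of the 43 were also called between the tissues in air, near the 61.6% of all rows. edgeR called 30 rows (0.147%) and DESeq2 109 (0.531%). The count rested on single nasal samples: it was 102 without acrolein nasal replicate 11, 23 without air nasal replicate 5, 24 without acrolein nasal replicate 10 or 12, and 25 without acrolein nasal replicate 15.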

How the data were processed

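The authors mapped reads to rat genome rn7 with the Ensembl annotation in Partek Flow and used DESeq2 in R 4.1.3. The deposited values are a signal: counts divided by a size factor per sample, each tissue table on its own. Libraries were made from mRNA and sequenced on an Illumina NextSeq. Whether strand was used in counting is not given in the sources used here, and rows of 1 gene or of close paralogs may share reads.

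Each column was divided by its own smallest value above 0 to give whole reads (tolerance 0.01; 100% of the values of the 25 samples). Reads of the 13 samples were joined by row and divided by median-of-ratios size factors computed over these 13. The main test was limma 3.58.1 (trend, R 4.3.3) on log2(value + 1), over rows above 0 in at least 2 samples, without a count model because normalized values were deposited. edgeR 4.0.16 and DESeq2 1.42.0 on recovered reads were alternatives, with 927 DESeq2 adjusted p left as NA. Other alternatives were the normalization, the pseudocount, the filter on low values, the variance model, thinning, the thresholds, a replicate block, same-numbered samples, and each sample left out. Single values per sample were compared by exact permutation. The functions were tested on simulated reads.

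The single rows named are the 2 largest differences each way among called, non-overlapping rows with a mean of at least 100 in the higher tissue. No symbol could be paired with an identifier, so the gene list and marker counts were not computed. The comparison, members and lists were chosen with earlier results of these data known. A bound on a fold divides the arithmetic mean of the higher tissue by 3 reads in each library of the other, averaged over the group after scaling. It bounds the group mean, and single samples can lie below it. For the restricted rows the pair of adipose air samples numbered 8 entered as 1 average. The labels do not say that the samples of a group came from separate animals, so p-values measure only the spread between these samples, which may be technical. The intervals of a difference come from limma and rest on the spread between samples, while the floor of 3 reads covers counting error only.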

Additional observations from a re-analysis of the deposited data

Results flagged for a closer look

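Among 24 groups of values looked at, 4 held a sample far from the others of its group. The rule flags about 1 in 20 groups by chance only where values are normally spread and groups are independent. Counts and percents on their own scale need not meet that, and 1 nasal sample was flagged for both lung rows. The 4 are therefore not set against chance. Nasal air replicate 2 had 161.1 normalized counts of ENSRNOT00000119173, with the next nasal sample at 5.78, and 192.7 of ENSRNOT00000047870, with the next at 11.5. Lung air replicate 5 was at 0.550% of the adrenal level over the adrenal-restricted rows, with the next lung at 0.329%. Lung air replicate 8 was at 1.506% of the adipose level over the adipose-restricted rows, with the next lung at 0.202%. Their causes were not tested.

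The difference between nasal and lung changed with exposure in 43 rows by limma's interaction test, a count that rests on single nasal samples.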

How the results depend on the processing

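Of 783 alternative values, 761 kept the direction and the call of the result or, for counts, stayed within 1.5 times, 21 moved and 1 reversed. The 136 for the 4 named identifiers kept direction and call but not size: the log2 difference ran from 16.92 to 22.78 for ENSRNOT00000088538, 14.88 to 21.0036 for ENSRNOT00000073734, -14.70 to -11.22 for ENSRNOT00000119173 and -13.97 to -11.13 for ENSRNOT00000047870. Calls were 68.6941% nasal higher with values as deposited and 48.5052% with quantile normalization, the reversal. In both the normalization alone differs: the first changes the scaling, the second forces all samples to 1 distribution. Rows at least 32-fold higher in nasal and in lung were 192 and 78 with a pseudocount of 5, 671 and 215 with edgeR, and 648 and 213 with DESeq2. DESeq2 gave 109 interaction rows. Leaving out 1 sample at a time gave 11719 to 12626 rows called, 359 to 420 and 127 to 138 rows at least 32-fold higher in nasal and in lung, 9802 to 11289 rows called in acrolein, 8659 to 9501 called the same way in both exposures, 190 to 204 brain-restricted rows higher in nasal and 23 to 102 interaction rows. edgeR called 12545 rows in air, 12037 of them shared with limma in the same direction, and DESeq2 12224, with 11802 shared.

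Same-numbered nasal and lung samples deviated from their group means with correlations of -0.222 to 0.101, so the numbers were not used to pair them. Whether they came from 1 rat is not given in the labels. With the replicate block 10714 rows were called, and 10930 with the same-numbered samples alone.

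Quantile normalization gave 23 muscle-restricted rows higher in lung and, for adipose-restricted rows, 2 higher in nasal and 8 in lung. In that setting 48.5% of the calls over all rows were higher in nasal. The planned gene list alternatives were not run. The smallest lung library, 8039391 reads, sets how small a lung value can be detected.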
